A study of Mus musculus with 12 samples.

Results

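The 119 genes described here encode glycosyltransferases and glycan sulfotransferases, the enzymes that build the sugar chains of glycoproteins, glycolipids and proteoglycans. They were chosen by symbol alone, as every gene whose name on the array begins with Fut, B3gnt, B3galt, B4galt, B4galnt, St3gal, St6gal, St6galnac, St8sia, Gcnt, Galnt, Mgat, Hs2st, Hs3st, Hs6st, Ndst, Chst, Chsy, Ext or Extl followed by a number, or by a letter and a number as in Galntl5. They make up 119 of the 18193 genes tested, on 236 of the 45101 probe sets, and 1 of them, Fut4-ps1, is a pseudogene.

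The cells were KH2, mouse embryonic stem cells engineered to take up inducible transgenes and labelled here as wild type, profiled on 12 Affymetrix arrays in 4 groups of 3 (replicates A, B and C). The groups are untreated cells (no RA) and cells kept for 2, 4 or 6 h in a differentiation medium of DMEM, serum and NAA with 0.3 µM retinoic acid (RA), a derivative of vitamin A under which such cells start to differentiate. All groups grew on feeder cells and were replated on gelatin before lysis, a step of 30 min that lets feeder cells settle, and the protocols differ on whether attached or unattached cells were kept. The labels do not say that untreated cells received the differentiation medium, so medium and RA cannot be told apart in any comparison against no RA, and nothing says that replicates were separate cultures, so p-values measure only the spread between these samples.

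Sugar chains grow in the Golgi by the ordered action of such enzymes, most of which add 1 kind of sugar or sulfate in 1 linkage. The set of enzymes a cell expresses is a main determinant of its surface glycans. Mouse embryonic stem cells are classically recognised by the fucosylated epitope SSEA-1 (Lewis x), carried on chains of repeated galactose and N-acetylglucosamine, and their heparan sulfate is needed to respond to FGF. As stem cells differentiate, fucosylation, sialylation of gangliosides and sulfation of heparan and chondroitin sulfate are all known to change.

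All 12 embryonic stem cell markers measured lay above the array median, 6.05 to 6.10 on the log2 scale, on all 12 arrays. Against no RA 1 of 12 was called higher and 1 lower at 2 h, 0 and 7 at 4 h, and 1 and 7 at 6 h. The median log2 difference was -0.0337, -0.3773 and -0.3691. Of all genes, 1.50% and 1.19%, 12.8% and 14.1%, and 15.0% and 14.7% were called higher and lower. Klf4, a pluripotency factor, was at -1.16 ± 0.0789 (SE) at 4 h and the growth factor Fgf4 at -1.30 ± 0.103. Nanog was higher by 0.48 ± 0.0772 at 2 h and Utf1 by 0.18 ± 0.0609 at 6 h, and Pou5f1, Dppa5a and Lin28a were called at no time. The part of these markers in the members' changes was not tested. Feeder fibroblast markers were present as well, and of 29 genes 0 were called at 2 h, 7 were higher and 2 lower at 4 h, and 4 higher and 2 lower at 6 h (median log2 difference 0.2413, 0.2979 and 0.1981). The mean log2 signal of the feeder markers was 7.54, 7.91 and 8.25 on the untreated arrays and 8.03 to 8.26 on the 9 RA arrays, with 4 or fewer of the 29 under the array median on all arrays of a group. The lowest of these means was that of untreated replicate C, where 8 of the 29 markers lay under the array median. That array also stood apart over all probe sets, with a correlation of 0.993 to replicates A and B, which correlated at 0.997, as did the RA arrays within their groups (0.997 to 0.998). The part of feeder RNA in the results below was not tested, and in bulk RNA fewer cells of a type and less RNA per cell cannot be told apart. For several of the genes on which replicate C weighed, values are given with and without it.

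At 2 h, 2 of the 119 members were higher and 3 lower than with no RA (limma, adjusted p under 0.05), against a background of 1.50% and 1.19% of all genes tested. By 4 h, 16 were higher and 19 lower, where 12.8% and 14.1% of all genes were called, and at 6 h 12 were higher and 15 lower, where the background was 15.0% and 14.7%. In either direction the shares were 4.2%, 29.4% and 22.7% of the members, near the 2.68%, 26.9% and 29.7% of all genes, so the group as a whole was called about as often as other genes. The median log2 difference of the members was -0.0279, -0.0114 and -0.0504 at 2, 4 and 6 h, and that of all genes was 0.0043, 0.0023 and -0.0135. The 3 comparisons share the untreated arrays. Without untreated replicate C, 4 members were higher and 5 lower at 2 h (2.07% and 1.97% of all genes), 18 and 19 at 4 h (14.7% and 14.4%), and 22 and 18 at 6 h (17.9% and 15.9%).

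Large differences were mostly falls. A log2 difference of at least 1 in size was called lower for 5 of the 119 members at 4 h (Fut9, Gcnt2, B4galnt2, St8sia1 and Chst15) and for 5 at 6 h (Fut9, Gcnt2, B4galnt2, St8sia1 and St6galnac3), against 0.698% and 0.874% of all genes. On the higher side 1 member passed it at 4 h (B3galt6) and 0 at 6 h, against 0.726% and 0.912% of all genes. At 2 h B3gnt7 passed it on the higher side and Hs3st3b1 on the lower side, where the background was 0.253% and 0.0220%. Of 39 members called against no RA at any time, 24 were called at both 4 and 6 h, 0 of them in opposite directions, 11 at 4 h and not at 6 h, and 3 at 6 h and not at 4 h. Another 80 were called at no time, with differences between -0.57 and 0.42. Of these, 36 lay under the array median on all 12 arrays. Whether signals below that median exceed background was not tested. Genes there are given without a fold, and a missing call says nothing about their response. For the counts by time, and for members called at no time here or by family below, shares over all genes were not counted. The same holds where a member is described as the only one with its course against no RA.

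**Figure D1:**
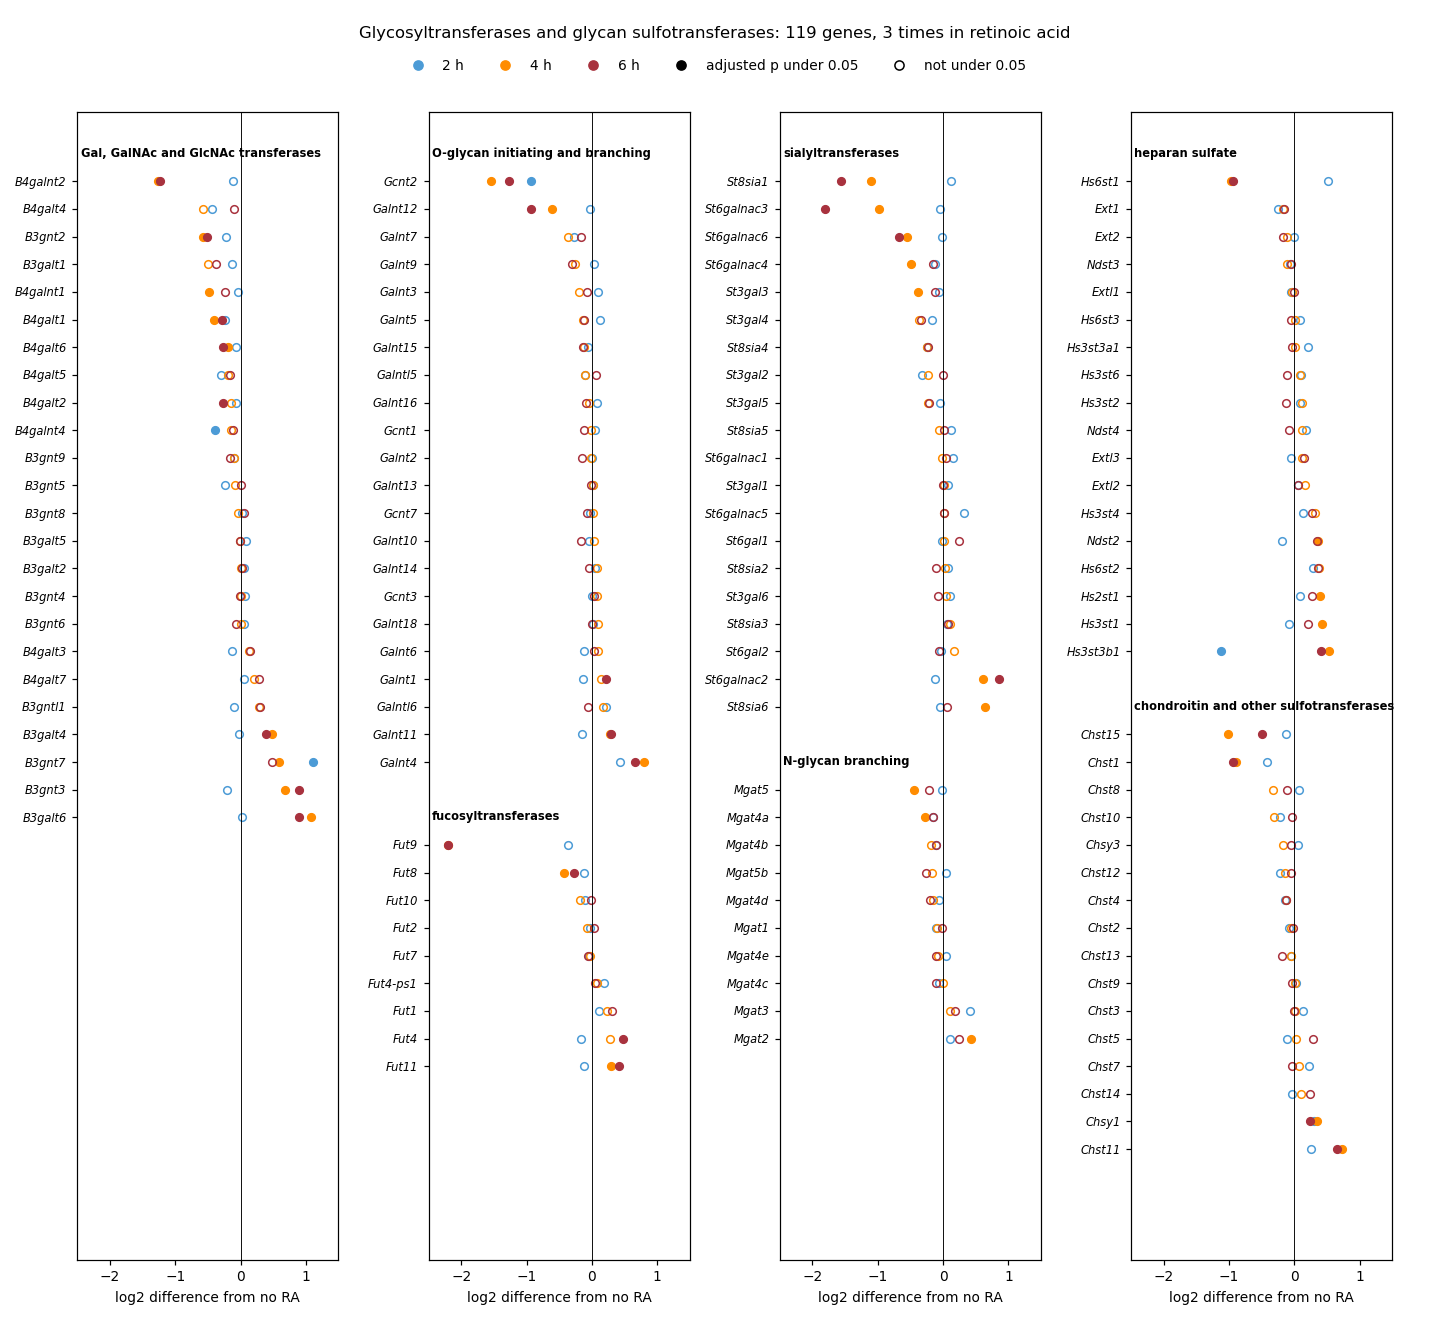
Log2 difference from no RA (horizontal axis) of each of the 119 members at 2 h (blue), 4 h (orange) and 6 h (red), in panels by enzyme family and ordered within a family by the value at 4 h. Filled points passed limma's adjusted p under 0.05 and open points did not. Most members sit close to 0 at every time, while Fut9 reaches -2.21 and the highest point at 4 h is B3galt6 at 1.08.

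Fucosyltransferases attach fucose as an end cap or at the core of a chain. Fut9, the enzyme that makes the Lewis x epitope of mouse stem cells, had the largest change of any member. Its log2 signal was 9.05, 9.21 and 9.28 with no RA, 8.75, 8.87 and 8.83 at 2 h, 7.16, 6.99 and 6.77 at 4 h and 6.95, 7.13 and 6.85 at 6 h. The untreated and 2 h arrays were high and the 4 and 6 h arrays low, with no overlap between those pairs of groups, and the 2 h arrays all lay below the untreated ones. The log2 difference from no RA was -0.36 ± 0.105 (SE) at 2 h, which did not pass (adjusted p = 0.0994), -2.21 ± 0.105 at 4 h and -2.20 ± 0.105 at 6 h (adjusted p = 1.66e-07 and 1.26e-07), a 4.62-fold and 4.6-fold lower signal. Between 2 and 4 h it fell by 1.85 ± 0.105 (adjusted p = 4.39e-06), and 6 h against 4 h gave 0.01 ± 0.105 (adjusted p = 0.987). All 3 probe sets of Fut9 were called lower at both 4 and 6 h, and the dimmer ones were at -1.20 and -1.89 on the log2 scale at 4 h and at -1.34 and -2.14 at 6 h.

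The other fucosyltransferases had smaller differences. Of all 9, 1 was higher and 2 lower at 4 h, against 12.8% and 14.1% of all genes. At 6 h 2 were higher and 2 lower, against 15.0% and 14.7%. Fut4, which also makes Lewis x, was not called at 4 h (0.28 ± 0.125, SE) and was higher at 6 h by 0.47 ± 0.125 (adjusted p = 0.0132), with group means under the array median throughout. Fut8, the enzyme of core fucose on N-glycans, fell by 0.42 ± 0.0694 at 4 h and 0.27 ± 0.0694 at 6 h (adjusted p = 0.00089 and 0.0119), and Fut11 rose by 0.29 ± 0.0888 and 0.42 ± 0.0888 (adjusted p = 0.0301 and 0.00378). The remaining 5 of 9 were called at no time, with differences from -0.19 to 0.31, and 2 of them lay under the array median on all arrays. The 4 h call of Fut11 was lost without untreated replicate A or B or replicate A of 4 h (adjusted p = 0.0581 to 0.118), the 6 h call of Fut4 without untreated replicate B or replicate A of 6 h (0.0544 to 0.0589), and that of Fut8 without replicate B of 6 h (0.055). Only 1 of the 3 probe sets of Fut8 and 1 of the 2 of Fut4 was called. Averaged over its probe sets, Fut8 was at -0.08 and -0.12 at 4 and 6 h (adjusted p = 0.372 and 0.159) and Fut4 at 0.20 at 6 h (adjusted p = 0.0627), and these calls were lost.

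Gcnt2 adds the branch that turns the linear chain of repeated galactose and N-acetylglucosamine (the i antigen) into the branched I antigen. It was the only member already lower at 2 h that stayed lower at 4 and 6 h. Its log2 signal was 10.25, 10.43 and 10.13 with no RA, 9.22, 9.34 and 9.44 at 2 h, 8.97, 8.66 and 8.55 at 4 h and 9.08, 9.04 and 8.87 at 6 h. Every RA array lay below every untreated array, and 4 h was the lowest group, overlapping with 6 h. The differences from no RA were -0.93 ± 0.114 (SE), -1.54 ± 0.114 and -1.27 ± 0.114 (adjusted p = 0.000881, 4.41e-06 and 1.08e-05), a 1.91-fold, 2.91-fold and 2.42-fold lower signal. The step from 2 to 4 h was a further fall of 0.61 ± 0.114 (adjusted p = 0.00253), and that from 4 to 6 h was 0.27 ± 0.114 and did not pass (adjusted p = 0.341).

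Probe sets of Gcnt2 did not move alike. At each time 3 of its 8 were called lower and 0 higher, and the mean over all 8 was -0.39, -0.62 and -0.49, still called at each time. RefSeq places 3 start sites of Gcnt2 in GRCm38.p6, each with its own first exon, and nothing used here ties a probe set to 1 of them. Their promoters are printed because the gene's readout may depend on which is in use. Each line gives the 250 bases before a start site, 5′ to 3′ on the gene's strand, from chr13:40859518-40859767 (+), chr13:40886508-40886757 (+) and chr13:40917384-40917633 (+). Capitals mark the letters AGGTCA or GGTTCA, half-sites of the element that RA receptors bind, or GGGCGG, the GC box, each searched on both strands.
Gcnt2 start site 1: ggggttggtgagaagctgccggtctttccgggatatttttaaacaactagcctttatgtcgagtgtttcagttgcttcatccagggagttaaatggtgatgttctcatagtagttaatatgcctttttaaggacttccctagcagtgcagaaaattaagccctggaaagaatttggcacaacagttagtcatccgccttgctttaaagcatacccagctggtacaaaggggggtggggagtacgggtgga
Gcnt2 start site 2: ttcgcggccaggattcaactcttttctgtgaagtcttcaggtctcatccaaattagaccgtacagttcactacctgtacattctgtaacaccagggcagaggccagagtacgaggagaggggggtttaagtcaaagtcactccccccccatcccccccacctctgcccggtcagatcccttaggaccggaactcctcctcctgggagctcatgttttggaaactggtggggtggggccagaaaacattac
Gcnt2 start site 3: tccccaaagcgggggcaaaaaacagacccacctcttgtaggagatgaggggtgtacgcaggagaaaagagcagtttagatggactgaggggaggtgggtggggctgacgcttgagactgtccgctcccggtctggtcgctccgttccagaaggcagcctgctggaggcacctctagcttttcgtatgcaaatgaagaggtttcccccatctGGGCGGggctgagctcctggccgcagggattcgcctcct
The third window holds 1 GC box and the other two none of these letters, and G and C make up 45.6%, 54% and 59.6% of them. Among all 32851 windows of this length in the table, AGGTCA occurs in 14%, GGTTCA in 8.85% and GGGCGG in 32.7%. In the 119 windows of the 90 members that the table holds, the shares are 8.4%, 5.04% and 52.9%. The paired element known as DR5, searched with AGTTCA and GGGTCA allowed as half-sites as well, occurs in 0.0883% of all windows and in 0 of the members' windows. Those further half-sites were not marked or counted by themselves, and AGTTCA occurs in the second window. Such a match describes letters in this window and nothing further.

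The chain that Gcnt2 branches is extended by B3gnt and B4galt enzymes in turn. B3gnt2, the main enzyme of its N-acetylglucosamine step, had a log2 signal of 10.63, 10.77 and 10.23 with no RA, 10.26, 10.34 and 10.38 at 2 h, 10.03, 9.96 and 9.93 at 4 h and 10.16, 9.98 and 9.95 at 6 h. It fell by 0.57 ± 0.115 (SE) and 0.51 ± 0.115 at 4 and 6 h (adjusted p = 0.00326 and 0.00524), on both of its probe sets. At 2 h it was not called (-0.22 ± 0.115, adjusted p = 0.359), but without untreated replicate C it was lower then too, at -0.38 (adjusted p = 0.0198). The 4 and 6 h arrays lay below all untreated arrays, of which replicate C was the lowest. B4galt1, a galactosyltransferase of the same chain, fell by 0.41 ± 0.0629 and 0.28 ± 0.0629 (adjusted p = 0.000549 and 0.00491), and B4galt6, which makes lactosylceramide, by 0.20 ± 0.0628 and 0.26 ± 0.0628 (adjusted p = 0.0352 and 0.0075). B4galt2 was lower at 6 h by 0.26 ± 0.0676 (adjusted p = 0.011), a call lost with the mean of its 2 probe sets (-0.17, adjusted p = 0.111). The 4 h call of B4galt6 was lost without untreated replicate A or any 1 array of 4 h (adjusted p = 0.0725 to 0.106).

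B3gnt7, an enzyme of keratan sulfate chains, moved early and the other way. Its log2 signal was 10.91, 10.74 and 10.13 with no RA, 11.62, 11.60 and 11.90 at 2 h, 11.19, 11.37 and 10.99 at 4 h and 11.22, 10.91 and 11.10 at 6 h. All 2 h arrays lay above all others, and untreated replicate C was the lowest array, 0.70 below the mean of A and B. B3gnt7 was higher by 1.11 ± 0.178 (SE) at 2 h (2.16-fold, adjusted p = 0.00579) and 0.59 ± 0.178 at 4 h (adjusted p = 0.0273), and by 0.48 ± 0.178 at 6 h, which did not pass (adjusted p = 0.0615). Without replicate C the differences were 0.88, 0.36 and 0.25, and the 4 h call was lost (adjusted p = 0.0634), as it was without replicate A or B of 4 h (0.0706 and 0.104). Without untreated replicate A the 6 h difference was called, at 0.64 (adjusted p = 0.0196). In a fit of the untreated and 2 h arrays by themselves, 6 in all, the 2 h call was lost (adjusted p = 0.0726).

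B3gnt3, which extends O-glycans, had a log2 signal of 5.95, 5.43 and 5.93 with no RA, 5.37, 5.77 and 5.53 at 2 h, 6.33, 6.69 and 6.36 at 4 h and 6.62, 6.61 and 6.74 at 6 h. The untreated and 2 h arrays all lay under the array median, and the 4 and 6 h arrays all above it. It rose by 0.69 ± 0.148 (SE) and 0.89 ± 0.148 at 4 and 6 h (adjusted p = 0.00456 and 0.000755).

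B3galt6, which adds a galactose to the linker that ties heparan and chondroitin sulfate to their proteins, had the largest rise of any member at 4 h. The arrays read, as log2 signal, 7.37, 7.36 and 6.88 with no RA, 7.34, 7.23 and 7.14 at 2 h, 8.28, 8.28 and 8.30 at 4 h and 8.21, 8.06 and 8.05 at 6 h. All 4 and 6 h arrays were above all untreated and 2 h arrays, and the 3 arrays of 4 h lay within a spread of 0.02 (SD). The difference was 1.08 ± 0.115 (SE) at 4 h and 0.90 ± 0.115 at 6 h (adjusted p = 4.95e-05 and 0.000127; 2.12-fold and 1.87-fold), and 2 h was at 0.03 ± 0.115 (adjusted p = 0.92). Without replicate C, the lowest untreated array, the gene was higher by 0.92 and 0.74, both still called. All 3 of its probe sets were called higher at 4 and 6 h. The 250 bases before its start site (GRCm38.p6, chr4:155992679-155992928, minus strand) are printed for their repeats: capitals mark a stretch of 23 bases that occurs 8 times.
B3galt6 promoter: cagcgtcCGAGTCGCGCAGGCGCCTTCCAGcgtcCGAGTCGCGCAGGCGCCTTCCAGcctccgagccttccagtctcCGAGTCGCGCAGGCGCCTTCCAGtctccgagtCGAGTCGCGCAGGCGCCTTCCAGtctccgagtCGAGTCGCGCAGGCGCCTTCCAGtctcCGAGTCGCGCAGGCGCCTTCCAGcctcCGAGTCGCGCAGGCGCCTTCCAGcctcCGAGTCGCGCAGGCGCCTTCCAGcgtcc
None of the 3 motifs above occurs in it, and 71.6% of its bases are G or C.

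Among the ganglioside and GalNAc enzymes of this family, B4galnt2, which makes the Sd(a) antigen, had a log2 signal of 7.43, 7.56 and 8.01 with no RA, 7.50, 7.56 and 7.60 at 2 h, 6.62, 6.26 and 6.35 at 4 h and 6.54, 6.21 and 6.56 at 6 h. Untreated and 2 h arrays were high and 4 and 6 h arrays low, without overlap, and it fell by 1.26 ± 0.145 (SE) and 1.23 ± 0.145 (adjusted p = 8.66e-05 and 7.64e-05; 2.4-fold and 2.35-fold lower). Its other 3 probe sets lay under the array median on all arrays and were not called, and the mean of the 4 was -0.32 and -0.39. B4galnt1, which makes the gangliosides GM2 and GD2, fell at 4 h by 0.48 ± 0.11 (adjusted p = 0.00649) and was at -0.24 ± 0.11 at 6 h. B3galt4, which acts on the next step towards GM1, rose by 0.48 ± 0.0818 and 0.39 ± 0.0818 (adjusted p = 0.00111 and 0.00349). B4galnt4 was lower at 2 h alone of the 3 times, by 0.39 ± 0.0808 (adjusted p = 0.0277), a call lost without untreated replicate A or any 1 of the 2 h arrays (adjusted p = 0.075 to 0.111). The remaining 13 of 24 in the family were called at no time.

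**Figure D2:**
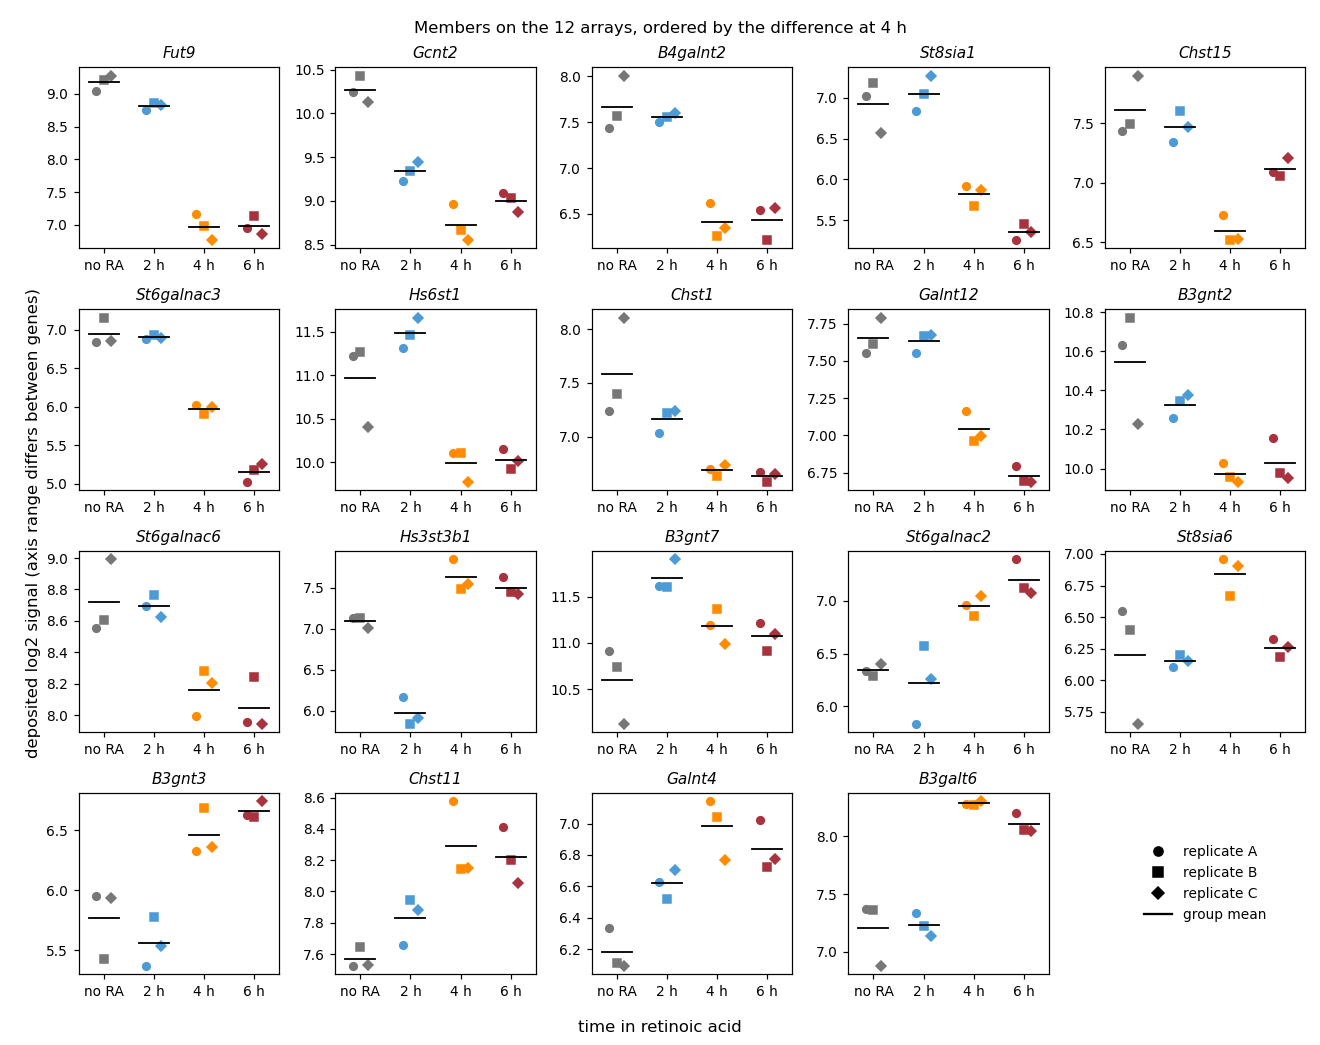
Deposited log2 signal (vertical axis, with its own range for each gene) of 19 members on the 12 arrays, by time in retinoic acid; circles, squares and diamonds are replicates A, B and C and bars are group means. Fut9 and St6galnac3 fall at 4 h or later, Gcnt2 falls from 2 h on, and Hs3st3b1 is lowest at 2 h and highest at 4 h. Untreated replicate C lies off A and B for genes such as Hs6st1, St8sia6 and Chst1.

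Galnt enzymes attach the first sugar of mucin-type O-glycans. Galnt12 had a log2 signal of 7.55, 7.62 and 7.79 with no RA, 7.55, 7.67 and 7.67 at 2 h, 7.16, 6.96 and 7.00 at 4 h and 6.80, 6.69 and 6.69 at 6 h. It fell by 0.61 ± 0.0789 (SE) at 4 h and 0.93 ± 0.0789 at 6 h (adjusted p = 0.000181 and 8.31e-06), and the 3 arrays of 6 h lay below all others. The step from 4 to 6 h, -0.31 ± 0.0789, did not pass (adjusted p = 0.103).

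Galnt4 had 6.34, 6.11 and 6.10 with no RA, 6.63, 6.52 and 6.71 at 2 h, 7.14, 7.04 and 6.77 at 4 h and 7.02, 6.72 and 6.77 at 6 h as its log2 signal, with all RA arrays above all untreated ones. It was higher by 0.80 ± 0.111 (SE) and 0.66 ± 0.111 at 4 and 6 h (adjusted p = 0.000297 and 0.000865), and by 0.44 ± 0.111 at 2 h, which did not pass (adjusted p = 0.065). Its other 2 probe sets were not called, and the mean of the 3 was 0.36 and 0.23. Galnt11, which can act on Notch, rose by 0.28 ± 0.068 and 0.29 ± 0.068 (adjusted p = 0.0099 and 0.00618), on 1 of its 2 probe sets. With the mean of both, Galnt11 was at 0.17 and 0.13 and neither call held (adjusted p = 0.0684 and 0.147). Galnt1 rose by 0.21 ± 0.0661 at 6 h (adjusted p = 0.0308), a call lost without untreated replicate A or B or replicate A or C of 6 h (0.0637 to 0.118). Of the 22 Galnt and Gcnt genes, 17 were called at no time, Gcnt1 among them, which was at 0.05 ± 0.113, -0.01 ± 0.113 and -0.13 ± 0.113. Among the 17, Galnt7 had 2 of its 3 probe sets called lower at 4 and 6 h, and Galnt2 had 2 of 3 at 6 h. Both genes were called at those times with the mean of their probe sets.

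Sialyltransferases cap chains with sialic acid. None of the 20 was called at 2 h, where 2.68% of all genes were. At 4 h 2 were higher and 5 lower, against 12.8% and 14.1% of all genes, and at 6 h 1 was higher and 3 lower, against 15.0% and 14.7%. St6galnac3, which adds sialic acid to the GalNAc of gangliosides and O-glycans, fell in 2 steps. Its log2 signal was 6.84, 7.16 and 6.86 with no RA, 6.88, 6.93 and 6.90 at 2 h, 6.03, 5.90 and 6.00 at 4 h and 5.02, 5.17 and 5.25 at 6 h. The untreated and 2 h arrays overlapped, the 4 h arrays lay below both, and the 6 h arrays below all others. It fell by 0.97 ± 0.089 (SE) at 4 h and fell by 1.80 ± 0.089 at 6 h (adjusted p = 1.97e-05 and 1.64e-07), after -0.05 ± 0.089 at 2 h (adjusted p = 0.815). Between 4 and 6 h it fell by 0.83 ± 0.089 (adjusted p = 0.00327), the only one of 119 members called in that step, where 0.588% of all genes were. All 4 and 6 h values lay under the array median, so no fold is given. Of its 3 probe sets, 2 were called lower at 4 and 6 h, and the mean of the 3 was -0.54 and -0.94.

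St8sia1, the enzyme that makes the ganglioside GD3, had a like course. The log2 signal was 7.03, 7.18 and 6.57 with no RA, 6.84, 7.04 and 7.27 at 2 h, 5.91, 5.67 and 5.88 at 4 h and 5.26, 5.46 and 5.35 at 6 h. The untreated and 2 h arrays were high and overlapped, the 4 h arrays lower, and the 6 h arrays lowest. It fell by 1.10 ± 0.148 (SE) and 1.57 ± 0.148 (adjusted p = 0.000238 and 1.59e-05), and the step from 4 to 6 h, -0.47 ± 0.148, did not pass (adjusted p = 0.191). At 6 h all 3 of its probe sets were called lower and at 4 h only the brightest was, with a mean of the 3 of -0.58 and -0.95. All 4 and 6 h values of St8sia1 lay under the array median too, so the sizes hold for the deposited values alone and no fold is given. The promoters of St6galnac3 (chr3:153725134-153725383, minus strand) and St8sia1 (chr6:142964453-142964702, minus strand) are set side by side because neither gene was called at 2 h and both were lower at 4 and 6 h. Other members, Fut9 and B4galnt2 among them, met the same description. Both promoters are given as for Gcnt2.
St6galnac3 promoter: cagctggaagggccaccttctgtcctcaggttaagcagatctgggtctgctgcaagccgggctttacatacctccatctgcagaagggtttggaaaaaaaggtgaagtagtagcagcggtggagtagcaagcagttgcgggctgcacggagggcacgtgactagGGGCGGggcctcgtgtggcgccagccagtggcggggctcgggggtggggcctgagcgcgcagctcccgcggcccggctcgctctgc
St8sia1 promoter: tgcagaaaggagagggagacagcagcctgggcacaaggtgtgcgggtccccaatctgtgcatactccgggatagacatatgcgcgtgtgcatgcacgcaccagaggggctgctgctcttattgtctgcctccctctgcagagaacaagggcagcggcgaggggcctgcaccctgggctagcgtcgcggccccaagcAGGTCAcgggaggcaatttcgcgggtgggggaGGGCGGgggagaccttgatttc
Both windows hold 1 GC box. That of St8sia1 also holds AGGTCA, with its first base at position -54 from the start site, and that of St6galnac3 neither half-site.

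The other sialyltransferases divided by direction. St6galnac6, which also acts on gangliosides, had a log2 signal of 8.56, 8.61 and 8.99 with no RA, 8.69, 8.76 and 8.63 at 2 h, 8.00, 8.28 and 8.20 at 4 h and 7.96, 8.24 and 7.95 at 6 h, and fell by 0.56 ± 0.121 (SE) and 0.67 ± 0.121 (adjusted p = 0.00498 and 0.00135). St6galnac2, which acts on O-glycans, had 6.33, 6.29 and 6.40, 5.84, 6.57 and 6.26, 6.96, 6.86 and 7.05 and 7.39, 7.12 and 7.07 in the same order of groups. It rose by 0.61 ± 0.149 and 0.85 ± 0.149 (adjusted p = 0.00928 and 0.00105), with all 4 and 6 h arrays above all untreated and 2 h arrays, on 1 of 2 probe sets (mean of both 0.36 and 0.46). St8sia6, which makes disialic acid on O-glycans, had 6.55, 6.40 and 5.66 with no RA, 6.10, 6.20 and 6.15 at 2 h, 6.96, 6.67 and 6.91 at 4 h and 6.33, 6.18 and 6.26 at 6 h. It was higher at 4 h by 0.64 ± 0.178 (adjusted p = 0.0185) and not at 6 h (0.06 ± 0.178). Its untreated replicate C was 0.82 below the mean of A and B, and without it the 4 h difference was 0.37 (adjusted p = 0.00934). That call was lost with the mean of its probe sets (adjusted p = 0.0737) and without replicate A or C of 4 h (0.0675 and 0.0579).

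St6galnac4 and St3gal3 were lower at 4 h, by 0.49 ± 0.12 (SE) and 0.39 ± 0.065 (adjusted p = 0.0101 and 0.000997), and were at -0.15 ± 0.12 and -0.12 ± 0.065 at 6 h, where they did not pass. The St6galnac4 call came from 1 of its 2 probe sets and was lost with the mean of both (-0.26, adjusted p = 0.069). St3gal5, which makes GM3, the ganglioside that St8sia1 uses, was called at no time on its brightest probe set (-0.05 ± 0.0884, -0.23 ± 0.0884 and -0.21 ± 0.0884). At 4 h the other of its 2 probe sets was called lower, at -0.38, and the mean of both was called too. The 13 uncalled sialyltransferases lay between -0.37 and 0.32.

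Mgat enzymes set the number of N-glycan antennae. Of 10, 1 was higher and 2 lower at 4 h, near the 12.8% and 14.1% of all genes. None was called at 2 or 6 h, where 2.68% and 29.7% of all genes were. Mgat2, which starts the second antenna, was higher by 0.43 ± 0.11 (SE; adjusted p = 0.0115). Mgat4a was lower by 0.28 ± 0.0788 and Mgat5, which adds the branch that carries repeated galactose and N-acetylglucosamine, by 0.45 ± 0.105 (adjusted p = 0.0191 and 0.00723). The Mgat4a call was lost without untreated replicate A or C or replicate A of 4 h (adjusted p = 0.0522 to 0.0771), with the mean of its 2 probe sets (-0.13, adjusted p = 0.0968) and with array weights (adjusted p = 0.0523). At 6 h, on the fit of every probe set, 1 probe set of Mgat5 was called higher and 1 lower.

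Heparan sulfate is polymerised by Ext enzymes and then sulfated by Ndst, Hs2st, Hs6st and Hs3st enzymes. Hs3st3b1, which adds the rare 3-O-sulfate, was the only member called in both directions against no RA, lower at 2 h and higher at 4 and 6 h. Its log2 signal was 7.13, 7.13 and 7.01 with no RA, 6.17, 5.84 and 5.91 at 2 h, 7.84, 7.49 and 7.54 at 4 h and 7.63, 7.45 and 7.43 at 6 h. No array of 1 group overlapped with another group except between 4 and 6 h, and 2 of the 3 arrays at 2 h lay under the array median. It fell by 1.12 ± 0.108 (SE) at 2 h (adjusted p = 0.000145), then was higher than no RA by 0.53 ± 0.108 and 0.41 ± 0.108 (adjusted p = 0.00318 and 0.0123). From 2 to 4 h it rose by 1.65 ± 0.108 (adjusted p = 4.41e-06).

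The Hs3st3b1 values come from 1 of its 4 probe sets, as the other 3 lay under the array median on all arrays and were not called. The mean of all 4 was -0.25, 0.23 and 0.05, and the 6 h call was lost with it (adjusted p = 0.599) and without replicate A of 6 h (0.0563). Its paralogue Hs3st3a1 lay under the median on all arrays and was at 0.21 ± 0.0779 (SE), 0.01 ± 0.0779 and -0.03 ± 0.0779. The promoter of Hs3st3b1 (chr11:63922285-63922534, minus strand) is printed for the half-site it holds.
Hs3st3b1 promoter: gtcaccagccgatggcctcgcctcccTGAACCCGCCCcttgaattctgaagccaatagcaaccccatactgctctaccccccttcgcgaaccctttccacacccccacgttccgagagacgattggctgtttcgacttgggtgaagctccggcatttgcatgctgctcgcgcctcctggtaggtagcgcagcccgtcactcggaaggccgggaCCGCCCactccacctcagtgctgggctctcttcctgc
Read on the other strand, GGTTCA begins the first run of capitals, with its first base at position -224 from the start site, and it shares 1 base with the first of 2 GC boxes.

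Hs6st1, the main 6-O-sulfotransferase, had a log2 signal of 11.22, 11.27 and 10.40 with no RA, 11.31, 11.46 and 11.66 at 2 h, 10.11, 10.10 and 9.77 at 4 h and 10.15, 9.92 and 10.01 at 6 h. Untreated replicate C was 0.85 below the mean of A and B, and still above every 4 and 6 h array. The gene was lower by 0.97 ± 0.196 (SE) and 0.94 ± 0.196 (adjusted p = 0.00321 and 0.00346), and without replicate C it fell by 1.25 and 1.22. At 2 h it was at 0.51 ± 0.196, which did not pass (adjusted p = 0.204), and the fall from 2 to 4 h, which uses no untreated array in its means, was 1.49 ± 0.196 (adjusted p = 0.000324).

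Smaller rises at 4 h were those of Hs3st1 (0.42 ± 0.129, SE), Hs2st1 (0.39 ± 0.0964) and the N-sulfating enzyme Ndst2 (0.37 ± 0.121), with adjusted p = 0.0314, 0.0105 and 0.0408, and none of them was called at 6 h. The untreated and 2 h arrays of Hs3st1 all lay under the array median, and a filter on dim genes left it out. Another probe set of Hs2st1 fell by 0.40 at 4 h, so its direction rests on the probe set, and the mean of its probe sets was 0.02 (adjusted p = 0.856). The call of Hs3st1 was lost with array weights (0.30, adjusted p = 0.103) and without untreated replicate C (0.32, adjusted p = 0.101) or replicate A of 4 h (0.25, adjusted p = 0.0987), and that of Ndst2 without untreated replicate A or B or replicate B or C of 4 h (adjusted p = 0.0608 to 0.157). The polymerases Ext1 and Ext2 were called at no time, at -0.18 ± 0.104 and -0.12 ± 0.0699 at 4 h. In all, 13 of 18 heparan sulfate genes were called at no time, between -0.25 and 0.38. Among them, Extl2 at 4 h and Extl3 at 4 and 6 h were called higher on 1 of their 2 probe sets. Both were called with the mean of their probe sets too, and in that fit Ndst2 was also called at 6 h.

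Chst genes encode sulfotransferases of chondroitin, keratan and other chains, and Chsy genes polymerise chondroitin. Chst15, which makes doubly sulfated chondroitin, had a log2 signal of 7.43, 7.49 and 7.90 with no RA, 7.34, 7.60 and 7.47 at 2 h, 6.73, 6.52 and 6.53 at 4 h and 7.09, 7.05 and 7.20 at 6 h. It was lowest at 4 h, with the 6 h arrays between those of 4 h and all others, and fell by 1.01 ± 0.117 (SE) and 0.49 ± 0.117 (adjusted p = 9.11e-05 and 0.00748). Without replicate C, the highest untreated array, Chst15 fell by 0.87 and 0.34, both still called. The step from 4 to 6 h, 0.52 ± 0.117, did not pass (adjusted p = 0.0771).

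Chst1, which sulfates keratan, had 7.24, 7.40 and 8.11 with no RA, 7.03, 7.22 and 7.24 at 2 h, 6.70, 6.63 and 6.73 at 4 h and 6.67, 6.58 and 6.66 at 6 h. It fell by 0.89 ± 0.169 (SE) and 0.95 ± 0.169 (adjusted p = 0.00214 and 0.00121). Untreated replicate C was 0.79 above the mean of A and B, and without it the gene fell by 0.63 and 0.68, both still called. Chst11, which sulfates chondroitin at the 4-O position, had 7.53, 7.64 and 7.53 with no RA, 7.66, 7.94 and 7.88 at 2 h, 8.58, 8.14 and 8.15 at 4 h and 8.41, 8.20 and 8.05 at 6 h, with every RA array above every untreated one. It rose by 0.72 ± 0.126 and 0.65 ± 0.126 (adjusted p = 0.00133 and 0.00208), and by 0.32 and 0.41 as the mean of its 2 probe sets. Chsy1 was called higher at every time, by 0.31 ± 0.0673, 0.35 ± 0.0673 and 0.24 ± 0.0673 (adjusted p = 0.0347, 0.00238 and 0.0181), though its 2 h call was lost without any 1 of the arrays compared except untreated replicate C (0.0525 to 0.148) and its 6 h call without replicate C of 6 h (0.0742). The other 12 of 16 were called at no time.

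Between the RA groups, which use no untreated array in their means, most of the change lay between 2 and 4 h. In that step 20 members were higher and 18 lower, against 12.7% and 11.9% of all genes (24.6% in either direction). Of these 38, 29 were also called at 4 h against no RA, an overlap that was not counted over all genes. The higher members numbered 11 without replicate A of 2 h, 11 without replicate A of 4 h and 13 without replicate C of 4 h. From 4 to 6 h 0 members were higher and 1 lower, where 0.313% and 0.275% of all genes were called. For 6 h against 2 h 17 were higher and 16 lower, with a background of 17.1% and 15.1%. In the F test over the 4 groups 45 members (37.8%) and 36.3% of all genes passed.

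With each of the 236 probe sets tested by itself, 1 was higher and 5 lower at 2 h, 22 and 32 at 4 h, and 18 and 33 at 6 h. The background over all probe sets was 0.904% and 0.906%, 9.34% and 9.36%, and 10.8% and 9.83%. Probe sets of 1 gene were called in both directions for 1 member at 4 h, Hs2st1, and 1 at 6 h, Mgat5, out of 69 members with several. Fits of the 6 arrays of a comparison lost the 2 h calls of B3gnt7, B4galnt4 and Chsy1, the 4 h calls of B3gnt7, B4galt6, Fut11, Galnt11, Hs2st1, Hs3st1, Mgat2, Mgat4a, Ndst2, St6galnac4 and St8sia6, and the 6 h calls of B4galt2, Chsy1, Fut8 and Galnt1 (adjusted p = 0.0519 to 0.172).

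**Figure D3:**
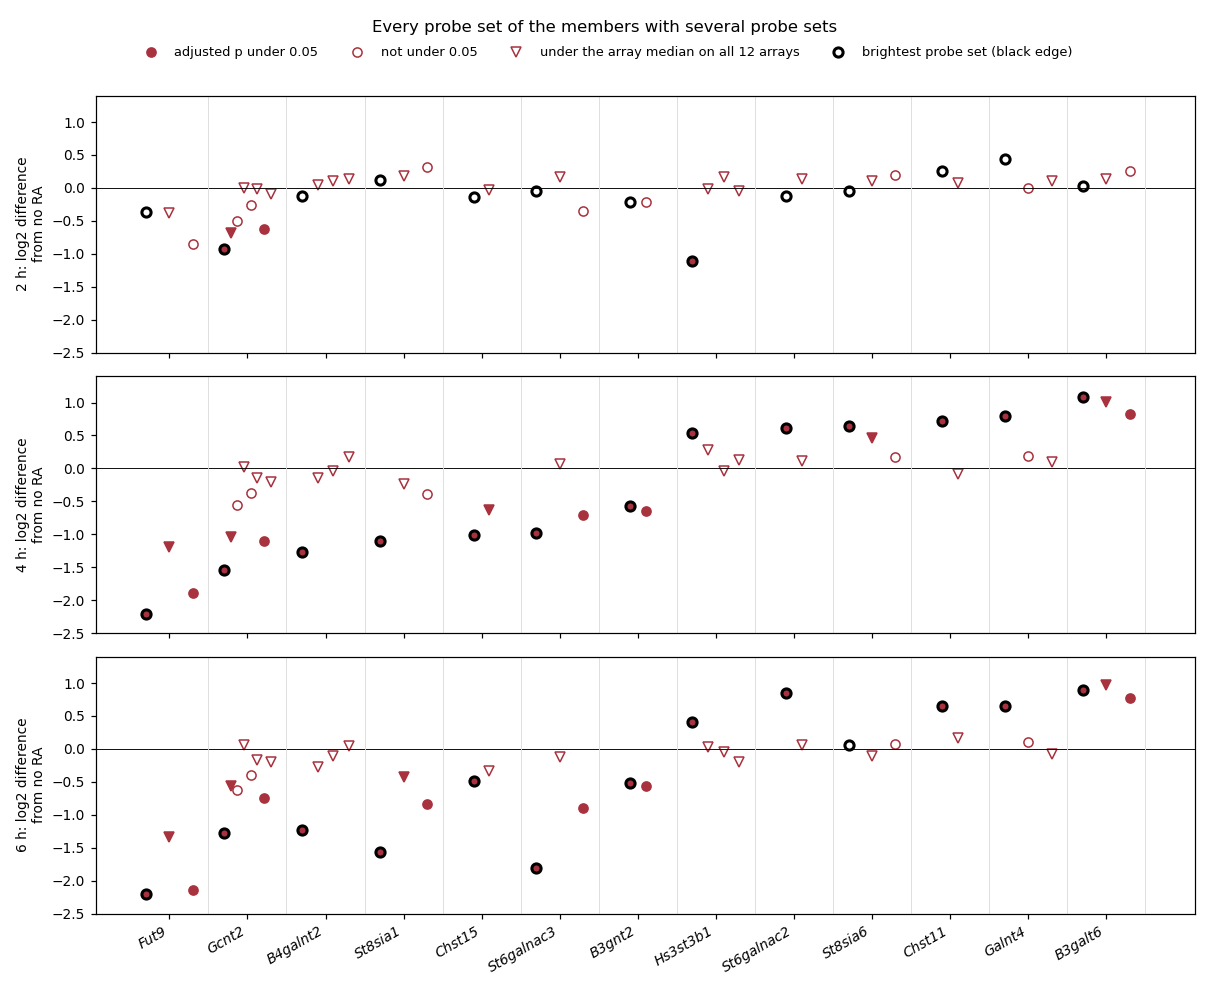
Log2 difference from no RA (vertical axis) of every probe set of the 13 named members with several, at 2, 4 and 6 h from top to bottom. Black edges mark the brightest probe set, whose values the text gives, filled symbols passed an adjusted p under 0.05, and triangles lay under the array median on all 12 arrays. All 3 probe sets of Fut9 are low and all 3 of B3galt6 high at 4 and 6 h, while 1 probe set each carries the changes of B4galnt2 and Hs3st3b1.

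Genes that supply these enzymes or act beside them were read from 9 lists, with counts to be set against the same background shares. For sialic acid supply and removal 2 of 11 were higher and 3 lower at both 4 and 6 h. The lysosomal sialidase Neu1 fell by 0.88 ± 0.177 (SE) and 0.74 ± 0.177, the sialate esterase Siae by 0.52 ± 0.0869 and 0.43 ± 0.0869, and Npl, which breaks down free sialic acid, by 0.27 ± 0.079 and 0.43 ± 0.079. Of 10 glycolipid genes 1 was higher and 5 lower at 4 h, and 2 and 4 at 6 h, the lower ones including Hexa, Glb1 and Gm2a, which degrade gangliosides in lysosomes. At 6 h these fell by 0.95 ± 0.103, 0.88 ± 0.0684 and 0.78 ± 0.0886 (adjusted p = 4.45e-05, 4.03e-06 and 6e-05).

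In the list of nucleotide sugars and the sulfate donor PAPS, 4 of 19 were higher and 6 lower at 4 h, and 4 and 5 at 6 h. Slc35d1, a carrier of UDP-sugars used for chondroitin, rose by 1.33 ± 0.0738 (SE) and 1.21 ± 0.0738 (adjusted p = 6.01e-07 and 8.33e-07). Slc35b1 rose by 0.61 ± 0.0981 at 6 h and the PAPS synthase Papss1 fell by 0.59 ± 0.0984. The list of GDP-fucose supply, protein O-fucosylation and fucose removal had 2 higher and 1 lower of 10 at 4 h and 1 and 2 at 6 h. Among its called genes the largest differences were those of the fucose kinase Fcsk (-0.39 ± 0.095 at 4 h), Fpgt (0.40 ± 0.0877 at 2 h) and Gmds (-0.30 ± 0.0718 at 6 h).

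Among 16 further glycosaminoglycan enzymes 4 were higher and 2 lower at 4 h, and 5 and 2 at 6 h. Sulf1, which removes the 6-O-sulfates that Hs6st1 adds, fell by 0.46 ± 0.108 (SE), 0.64 ± 0.108 and 0.72 ± 0.108 (adjusted p = 0.0457, 0.00108 and 0.000422). The dermatan epimerase Dse rose by 0.50 ± 0.0651 at 2 h and Csgalnact2 by 0.48 ± 0.107 at 6 h. Of 13 heparan sulfate core proteins 1 was higher and 3 lower at 4 h, and 1 and 4 at 6 h, where Sdc2 fell by 0.68 ± 0.0835 and Gpc3 by 0.59 ± 0.102, and Sdc1 was lower at 2 h by 0.43 ± 0.0885.

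N-glycan trimming had 1 of 12 higher and 4 lower at 4 h and at 6 h. The mannosidases Man2a2 and Man1c1 fell by 0.72 ± 0.131 (SE) and 0.71 ± 0.0992 at 4 h and Man1a2 rose by 0.51 ± 0.0653 at 6 h. For O-glycan core, O-GlcNAc and O-mannose genes, 5 of 12 were higher and 1 lower at 4 h, and 5 and 2 at 6 h. The O-GlcNAc transferase Ogt rose by 0.66 ± 0.0889 at 6 h, Pomgnt2 by 0.63 ± 0.0726 at 4 h, and the Notch-modifying Mfng fell by 0.56 ± 0.108. Of 8 galectins, which bind galactose-ended chains, Lgals9 rose by 0.63 ± 0.0979 at 6 h, and Lgals8 and Lgals4 fell by 0.34 ± 0.0762 and 0.29 ± 0.0843 at 4 h.

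**Figure D4:**
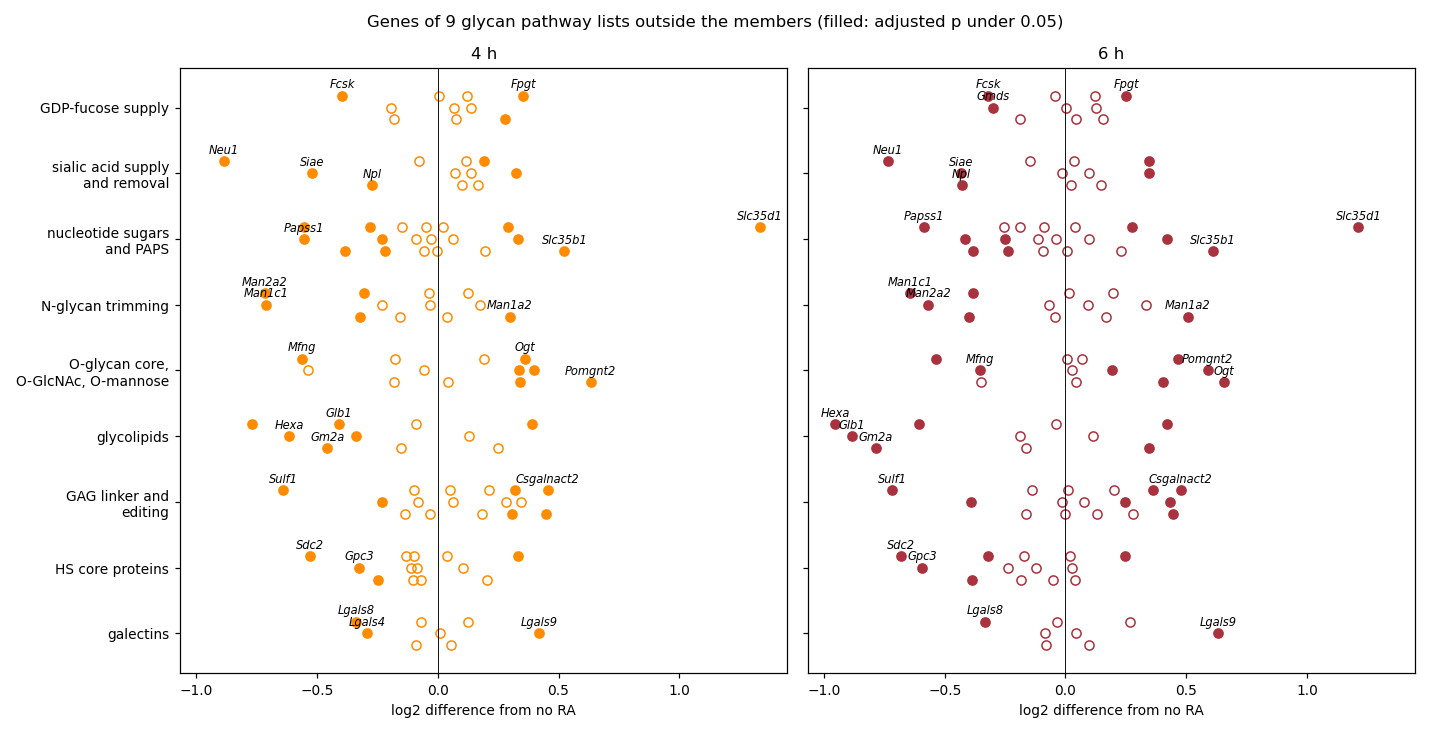
Log2 difference from no RA (horizontal axis) at 4 h (left) and 6 h (right) of the genes of 9 glycan pathway lists outside the 119 members, one row of points per list. Filled points passed an adjusted p under 0.05, and the genes the text names are labelled where they passed. Slc35d1 stands far to the right at both times, and Hexa, Glb1 and Gm2a are at the left at 6 h.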

How the data were processed

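Total RNA of 12 KH2 samples was hybridised to Affymetrix arrays. The authors deposited log2 signal, 45101 probe sets to an array. The submitters' processing notes list limma 3.4.3, and the method of background correction and normalization is not given in the sources used here. Values were tested as deposited. Probe sets were named from the platform annotation (34945 with 1 gene, 932 with several, 9224 with none), and all 119 members matched RefSeq's gene table. These counts include 64 controls, which were not tested. Probe sets with several genes, 3 of which list a member, were not used for gene values. Each gene was read from its probe set of highest mean.

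Group means came from limma 3.58.1 (lmFit and eBayes, R 4.3.3; 8 residual and 3.78 prior degrees of freedom), with Benjamini-Hochberg adjustment over all 18193 genes, and called at an adjusted p under 0.05. The script was tested on simulated data. The number of arrays, 3 per group, limits precision. Members, lists, the rule for named genes and the alternatives were chosen with earlier results of these data known. By that rule Fut9, Gcnt2, Hs3st3b1, St6galnac3 and each member called against no RA with a difference of at least 0.5 have their values given for every array, other called members their differences, and up to 3 called genes of each list are named. Promoters are RefSeq's, build GRCm38.p6. Alternatives were quantile normalization, median centring, other probe set choices, a dim filter, array weights, trended and robust variances, fits of 6 arrays, a replicate block, a threshold of 0.01 and leaving out each array.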

Additional observations from a re-analysis of the deposited data

Results flagged for a closer look

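Hs3st3b1 is listed because its change differed between times. It was 1.65 higher on the log2 scale at 4 h than at 2 h, a test of the difference itself, with a fall at 2 h and a rise at 4 h against no RA. The value rests on 1 probe set of 4, and the part of that probe set in the turn was not tested.

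St6galnac3 is listed because 6 h differed from 4 h by -0.83 on the log2 scale, the only one of the 119 members called in that step. Its values at 4 and 6 h lay under the array median, and whether they lay above background was not tested.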

How the results depend on the processing

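Of 969 values of the 19 members given array by array (57 log2 differences, 17 alternatives each), 949 stayed on their side of the threshold, 14 lost a call, 6 gained one and 0 calls reversed. The sign changed for 25 values of 10 differences, which were called neither as reported nor under the alternative and were at most 0.1352 in size as reported. The lost and gained calls were those of B3gnt2 (2 h), B3gnt7, Galnt4 (2 h), Hs3st3b1 (6 h) and St8sia6 (4 h), and the cause was not tested. Counts moved by over 1.5 times as follows. With the dim filter 4 members were higher at 2 h. Array weights gave 801 genes and 4 higher and 5 lower members at 2 h, and 20 higher members at 6 h. Fits of the 6 arrays compared gave 134 genes at 2 h and 3081 at 4 h, with 0 and 8 members higher. At an adjusted p under 0.01, 195, 2994 and 3478 genes were called at 2, 4 and 6 h and 2367 at 4 h against 2 h, with 1 and 9 members higher at 2 and 4 h, and 8 higher and 11 lower at 4 h against 2 h. With every probe set, 815, 8422, 9286 and 7354 of 45037 probe sets were called in these comparisons, counts in another unit than those of the 18193 genes. Among member probe sets 1 was higher and 5 lower at 2 h, 32 were lower at 4 h and 33 were lower at 6 h.

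Leaving out 1 array gave 219 to 734 genes at 2 h, with 1 to 4 members higher and 2 to 5 lower, 9 to 22 members higher at 6 h, and 11 to 15 higher at 4 h against 2 h. After quantile normalization 297 genes were higher and 143 lower at 2 h, against 272 and 216 before. With the replicate letter as a block 6, 39 and 33 members were called at 2, 4 and 6 h and 38 at 4 h against 2 h. Arrays of 1 letter and different groups correlated between -0.128 and 0.315 in their deviations, with 4 of 18 pairs over 0.1. Arrays of other letters and different groups ran from -0.304 to 0.232, with 5 of 36 pairs over 0.1. Whether a letter marks anything shared between groups, such as a batch, was not tested. Signal under the array median limits what 36 members can show.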
